A study of Mus musculus with 6 samples.

Results

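Aminoacyl-tRNA synthetases attach each amino acid to its matching transfer RNA (tRNA), and 36 genes for these enzymes were examined in cells kept in low or normal sodium. A list of 20 cytosolic and 16 mitochondrial enzymes was matched by gene symbol to the array annotation, and each gene was represented by the brightest of its probe sets that were annotated to 1 gene. Of these, 35 were measured among 18193 genes in all, namely 19 cytosolic and 16 mitochondrial enzymes, and 1 cytosolic enzyme was not analysed here. The cells were RAW264.7, mouse macrophage-like cells that turn into osteoclast-like cells when given RANKL, the main osteoclast-forming cytokine. Cultures of this 1 line spent 24 hours in αMEM medium holding sodium at 120 mmol/l (low sodium, 3 arrays) or 137 mmol/l (normal sodium, 3 arrays). The low-sodium medium had been diluted and brought back to an osmolality of 290 mOsm/l with mannitol, and the base medium carried glucose, glutamine and fetal bovine serum. The cytokines M-CSF (10 ng/ml) and RANKL (30 ng/ml) stand beside the low-sodium medium in the labels, and their wording does not settle whether normal-sodium cells received them too. Each difference below is therefore between the media as labelled. A part of the cytokines, the dilution or the mannitol in these differences cannot be told apart from that of sodium. The labels speak of 4 biological replicates per group, of which 3 per group were analysed here.

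In the cytosol a separate synthetase serves nearly every amino acid, with 1 bifunctional gene (Eprs) for glutamate and proline, and several of these enzymes sit together in the multisynthetase complex. Mitochondria use their own set, encoded by nuclear genes whose symbols end in 2, to translate the few proteins of the mitochondrial genome, which are parts of the respiratory chain. Many cytosolic synthetase genes are also known targets of ATF4, the transcription factor that is translated when amino acids run short or unfolded protein builds up. ATF4 and its C/EBP partners bind a composite element in many target genes, so promoter stretches of members with an entry in the RefSeq promoter table are shown first.

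Promoter windows of 300 bases, 250 before to 50 after the annotated start, were found for 12 cytosolic and 14 mitochondrial members (RefSeq, build GRCm38.p6). The letters TGATGNAA, the core of the C/EBP-ATF element, were searched on both strands, so that TTNCATCA is the same match on the other strand. This match occurred in 5 of the 12 cytosolic windows (Aars, Gars, Iars, Tars and Yars) and in 0 of the 14 mitochondrial ones. Wars and Rars, the cytosolic members that passed the test described below, had no entry and were not searched. Among 14368 measured genes with an entry, 3.24% had it anywhere in the window and 2.83% had it upstream of the start. The upstream matches of members lay in Aars at position -112, in Gars at -30 and in Tars at -15, counted from the annotated start. Aars had another match at position 10, and those of Iars and Yars lay at positions 8 and 4, past the start. A match is a description of the letters and shows no binding. The 120 bases before the start are given for these 3 genes, with the match in capitals, and for Lars2 and Yars2, the mitochondrial members that passed the test described below, which have no match. They run 5′ to 3′ on the strand of the gene, from chr8:111033722-111033841 (plus strand) for Aars, chr6:55037881-55038000 (plus) for Gars, chr15:11399659-11399778 (minus) for Tars, chr9:123366807-123366926 (plus) for Lars2 and chr16:16302845-16302964 (plus) for Yars2.
Aars: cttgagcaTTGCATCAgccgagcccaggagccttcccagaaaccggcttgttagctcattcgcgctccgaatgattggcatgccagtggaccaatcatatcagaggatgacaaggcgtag
Gars: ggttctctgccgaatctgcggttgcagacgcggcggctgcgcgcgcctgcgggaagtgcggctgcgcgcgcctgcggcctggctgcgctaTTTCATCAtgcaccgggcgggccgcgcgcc
Tars: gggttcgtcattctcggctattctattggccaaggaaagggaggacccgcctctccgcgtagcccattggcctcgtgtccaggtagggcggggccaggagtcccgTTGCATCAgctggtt
Lars2: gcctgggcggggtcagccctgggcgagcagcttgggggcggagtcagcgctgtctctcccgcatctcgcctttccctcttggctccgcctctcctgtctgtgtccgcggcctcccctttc
Yars2: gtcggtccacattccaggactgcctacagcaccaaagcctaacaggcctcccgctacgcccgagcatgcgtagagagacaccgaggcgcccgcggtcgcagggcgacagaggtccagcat

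The deposited values were Affymetrix probe set intensities, analysed here as log2(intensity + 1). Levels are not compared between genes, since each probe set has its own brightness. The array medians were 74.5, 74.0 and 47.8 intensity units in low sodium and 70.2, 66.5 and 56.1 in normal sodium. Replicate 3 of each group stood apart from the rest. On its arrays the spiked labelling controls had a mean log2 intensity of 8.36, against 10.21 on the arrays of replicates 1 and 2, and hybridisation controls had means of 12.02 and 11.94. No label names a batch, so replicate 3 is set against replicates 1 and 2 only on the strength of these controls, and the main values are also given within each. The 7 macrophage markers summed to 83600 to 99386 intensity units in low sodium and to 78714 to 90295 in normal sodium. Of these, Adgre1 was past the threshold, higher in low sodium by 0.96 on the log2 scale, and the other 6 did not pass. The 7 osteoclast markers summed to 5901 to 7415 units in low sodium and to 796 to 2108 in normal sodium, with Ctsk, Dcstamp, Atp6v0d2 and Mmp9 past the threshold. Acp5 (0.70 on the log2 scale), Oscar (-0.17) and the dim Calcr (0.55) did not pass. On the replicate 3 array in low sodium the sum was carried by Atp6v0d2 (12.59, against 7.25 on that in normal sodium). Markers of T, B, fibroblast or osteoblast, epithelial and endothelial cells summed to at most 497 units per list on any array. In these bulk samples, a smaller share of one kind of cell and less RNA per cell cannot be told apart, and the part of the osteoclast marker shift in the synthetase values was not tested.

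Between the media as labelled, few of the synthetase genes passed the threshold: 2 cytosolic genes, both higher in low sodium, and 2 mitochondrial genes, both lower. The cytosolic genes for the tryptophan and arginine enzymes, Wars and Rars, rose 1.44-fold and 1.29-fold, and the other 17 cytosolic genes did not pass. The mitochondrial genes for the tyrosine and leucine enzymes, Yars2 and Lars2, fell 1.62-fold and 1.31-fold, and the other 14 mitochondrial genes did not pass. These calls come from a limma fit with sodium and a replicate 3 term, adjusted over all 18193 genes at 0.05 (the batch-term fit). Across all genes 3.78% rose and 3.81% fell in it. Calls were more frequent among bright genes: of the 4400 genes with a mean log2 intensity of 10 or more, 10.1% rose and 10.7% fell, and of the 3710 genes between 8 and 10, 4.96% rose and 5.18% fell. All 19 cytosolic members were in the brighter class, and of the mitochondrial members 4 were in it, 10 lay between 8 and 10 and 2 lay below 8. The 2 of 19 cytosolic genes that rose are close to the share among genes of like brightness, 2 of 16 is a small count to set beside 5.18% and 10.7%, and neither is a result about its family as such. Without the replicate 3 term, or with a constant in place of a trended prior, 0 members passed, where 0.22% and 0.011% of all genes did. On arrays centred on their medians, 0 cytosolic genes and Cars2 and Yars2 passed, both lower, where 1.98% of all genes were called higher and 3.65% lower. In replicates 1 and 2 alone, Wars, Rars and Nars were called higher and Farsa, Mars1, Qars, Yars2 and Lars2 lower, where 7.27% of all genes were called higher and 7.6% lower. At an unadjusted p under 0.05 there were 15 of 35 members in the batch-term fit, 5 without the term and 6 with the constant prior, where 21.7%, 10.1% and 16.4% of all genes did so. In the batch-term fit this held for 45.6% of genes at 10 or more and 32.1% of those between 8 and 10, so the members' count is close to the share among genes of like brightness.

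Wars, which charges tRNA with tryptophan and is known in human cells as an interferon-inducible gene, had log2 intensities of 12.28, 12.33 and 12.25 on the low-sodium arrays of replicates 1, 2 and 3, against 11.91, 11.89 and 11.47 on the normal-sodium arrays. All 3 low-sodium arrays lay above all 3 normal-sodium arrays, and the lowest value of the gene was on the replicate 3 array in normal sodium. The log2 difference of low minus normal sodium was 0.53 ± 0.09 (SE, n = 3 per group, limma adjusted p = 0.0141), with 0.41 in replicates 1 and 2 and 0.78 in replicate 3. The probe set shown carries the mark the manufacturer gives to probes that may match other transcripts too, and the size depended on the probe set. The other 3 bright probe sets of Wars also lay higher in low sodium, but by 0.16 to 0.26 on the log2 scale, and none of them passed when all probe sets were tested (adjusted p from 0.25 to 0.434). Averaging all probe sets of the gene gave a log2 difference of 0.29, which did not pass (adjusted p = 0.136).

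Rars encodes the arginine enzyme, a member of the multisynthetase complex. Its single probe set gave log2 intensities of 12.96, 12.95 and 12.54 in low sodium, against 12.69, 12.66 and 11.97 in normal sodium. Within each replicate number the low-sodium array was higher, but the groups overlapped, because the replicate 3 array in low sodium lay below replicates 1 and 2 in normal sodium. The log2 difference was 0.37 ± 0.08 (SE, n = 3 per group, limma adjusted p = 0.0302), with 0.28 in replicates 1 and 2 and 0.57 in replicate 3. Without the replicate 3 term the adjusted p of Rars was 0.664 and that of Wars 0.244.

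Yars2, the mitochondrial tyrosine enzyme, had log2 intensities of 9.14, 8.84 and 8.84 in low sodium, against 9.51, 9.49 and 9.92 in normal sodium. Every low-sodium array lay below every normal-sodium array. The log2 difference was -0.70 ± 0.15 (SE, n = 3 per group, limma adjusted p = 0.0358), with -0.51 in replicates 1 and 2 and -1.08 in replicate 3, and the other bright probe set of the gene differed by -0.37. Lars2, the mitochondrial leucine enzyme, had 9.68, 9.75 and 10.09 in low sodium, against 10.19, 10.09 and 10.40 in normal sodium. Its groups overlapped, since the replicate 3 array in low sodium was level with the replicate 2 array in normal sodium, while within replicates 1 and 2 and within replicate 3 the low-sodium arrays were lower. The log2 difference of Lars2 was -0.39 ± 0.09 (SE, n = 3 per group, limma adjusted p = 0.0381), with -0.43 in replicates 1 and 2 and -0.31 in replicate 3. Its other bright probe set differed by -0.33, whereas averaging all 3 of its probe sets, a dim one included, gave -0.16 (adjusted p = 0.64). The adjusted p without the replicate 3 term was 0.224 for Yars2 and 0.486 for Lars2.

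**Figure D1:**
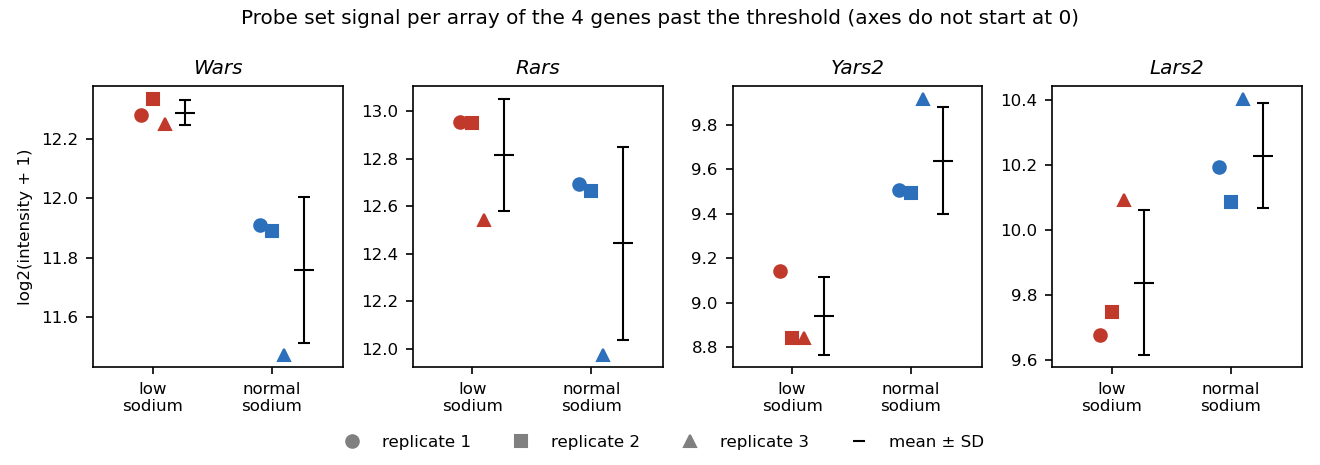
log2(intensity + 1) on each array for the 4 members past the threshold, low sodium left of normal sodium, with circles, squares and triangles for replicates 1, 2 and 3 and black bars for the mean ± SD. Wars and Yars2 separate the groups on all arrays (12.25 to 12.33 against 11.47 to 11.91, and 8.84 to 9.14 against 9.49 to 9.92), whereas in Rars the replicate 3 triangles lie low in both groups.

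Among the cytosolic genes that did not pass, Aars and Farsb had log2 differences above that of Rars, with larger standard errors, and the others had smaller ones. Aars, the alanine enzyme, had log2 intensities of 12.28, 12.32 and 12.15 in low sodium, against 11.93, 12.33 and 10.98 in normal sodium. The log2 difference of 0.50 ± 0.20 (SE, limma adjusted p = 0.201) was made of 0.17 in replicates 1 and 2 and 1.17 in replicate 3. The replicate 3 array in normal sodium held the lowest value of the gene by far. Sars, the serine enzyme, had 13.43, 13.41 and 13.43 in low sodium, against 13.31, 13.18 and 13.00 in normal sodium. These groups did not overlap, yet the log2 difference of 0.27 ± 0.08 (SE, limma adjusted p = 0.0845) stayed short of the threshold.

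The phenylalanine enzyme is built from 2 kinds of subunit, and their genes stood on opposite sides of 0. Farsb, the beta subunit, had log2 intensities of 12.33, 12.47 and 12.59 in low sodium, against 12.32, 12.19 and 11.49 in normal sodium. Farsa, the alpha subunit, had 10.51, 10.62 and 10.73 in low sodium, against 10.92, 10.77 and 10.99 in normal sodium. The groups did not overlap for either subunit, with Farsb higher and Farsa lower in low sodium. The log2 differences were 0.47 ± 0.18 for Farsb (SE, limma adjusted p = 0.188) and -0.27 ± 0.08 for Farsa (SE, limma adjusted p = 0.0862), and neither passed. In replicates 1 and 2 Farsb differed by 0.15 and in replicate 3 by 1.11, whereas Farsa differed by -0.28 and -0.26. Of the other 2 bright probe sets of Farsa, 1 lay slightly higher in low sodium (0.08 on the log2 scale, SE 0.35), and the difference between the subunits was not tested.

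Another 6 cytosolic genes kept the low-sodium arrays on one side in replicates 1 and 2 and in replicate 3, without passing. Nars, for asparagine, differed by 0.24 on the log2 scale (limma adjusted p = 0.0913), Lars, for leucine, by 0.16 (adjusted p = 0.164) and Eprs, for glutamate and proline, by 0.23 (adjusted p = 0.218). Hars, for histidine, differed by -0.31 (adjusted p = 0.133), Mars1, for methionine, by -0.18 (adjusted p = 0.135) and Vars, for valine, by -0.30 (adjusted p = 0.262). Gars and Kars, each of which encodes both the cytosolic and the mitochondrial enzyme of its amino acid (glycine and lysine), were close to 0. Gars had 13.02, 13.02 and 12.83 in low sodium, against 13.10, 13.11 and 12.47 in normal sodium, a log2 difference of 0.06 ± 0.10 (SE, limma adjusted p = 0.78). Kars had 11.34, 11.45 and 11.80 in low sodium, against 11.41, 11.40 and 11.70 in normal sodium, a log2 difference of 0.03 ± 0.07 (SE, limma adjusted p = 0.87). For both genes the groups overlapped, and the signal differed more between replicate 3 and replicates 1 and 2 than between the sodium groups. The remaining cytosolic genes, Cars, Iars, Qars, Tars and Yars, had log2 differences from -0.14 (Qars) to 0.08 (Cars).

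In the mitochondrial set, Cars2, for cysteine, had the lowest log2 difference. It had 8.40, 8.57 and 7.89 in low sodium, against 8.84, 8.94 and 9.24 in normal sodium, and every low-sodium array lay below every normal-sodium array. The difference of -0.72 ± 0.20 (SE, limma adjusted p = 0.083) did not pass, and it was -0.41 in replicates 1 and 2 and -1.35 in replicate 3. Sars2, for serine, had 8.62, 8.25 and 8.21 in low sodium, against 8.69, 9.00 and 8.79 in normal sodium, again without overlap (difference -0.47 ± 0.16, SE, limma adjusted p = 0.139). Tars2, for threonine, had 11.01, 11.02 and 11.42 in low sodium, against 11.28, 11.12 and 11.04 in normal sodium, and its log2 difference of 0.01 ± 0.12 (SE, limma adjusted p = 0.985) hid opposite signs, -0.18 in replicates 1 and 2 and 0.38 in replicate 3. Mars2, for methionine, was the dimmest member, at 6.03, 5.38 and 5.31 in low sodium, against 6.10, 6.48 and 3.96 in normal sodium. Its difference of 0.06 ± 0.52 (SE, limma adjusted p = 0.967) is too imprecise to give a direction. Nars2, for asparagine, had the highest log2 difference of the mitochondrial genes, 0.34 ± 0.19 (SE, limma adjusted p = 0.369), from 0.04 in replicates 1 and 2 and 0.93 in replicate 3. The other 9 mitochondrial genes that did not pass lay between -0.40 (Aars2) and 0.21 (Fars2).

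**Figure D2:**
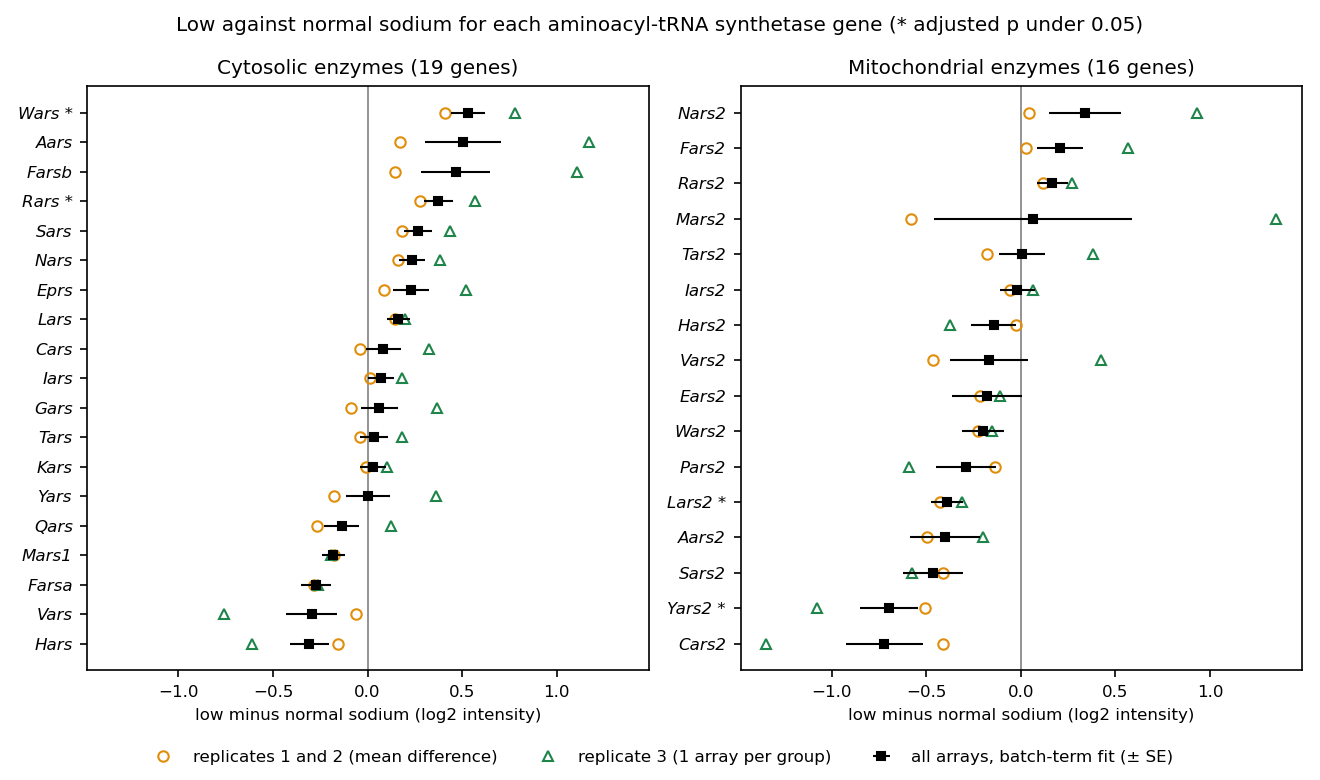
Low minus normal sodium on the log2 scale for the 19 cytosolic (left) and 16 mitochondrial genes (right), with black squares and bars for the batch-term fit and its SE, orange circles for replicates 1 and 2 and green triangles for replicate 3; stars mark adjusted p under 0.05. The cytosolic differences run from -0.31 to 0.53 and the mitochondrial ones from -0.72 to 0.34, and the triangles often lie farther from 0 than the circles.

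The spread of the members around 0 depended on the replicate. In replicates 1 and 2 the median log2 difference of the cytosolic genes was -0.01, with 9 above and 10 below 0, while in replicate 3 it was 0.32, with 15 above and 4 below. The mitochondrial medians were -0.22 in replicates 1 and 2 (3 above, 13 below 0) and -0.13 in replicate 3 (7 above, 9 below). Over all 18193 genes the medians were 0.02 in replicates 1 and 2, where 52.3% were above 0, and -0.06 in replicate 3, where 46.2% were. Of genes at 10 or more, 55.8% were below 0 in replicates 1 and 2 and 51.4% were above 0 in replicate 3, and of genes between 8 and 10, 51.9% and 56.7% were below 0 in the same order. In the batch-term fit the medians were 0.07 for the cytosolic genes, -0.17 for the mitochondrial genes and -0.01 for all genes. Centring each array on its median lowered every difference by 0.04, and 11 of 19 cytosolic and 4 of 16 mitochondrial genes were then above 0, against 14 and 5 as deposited. The genes that crossed 0 were Kars (-0.01), Tars (-0.01), Yars (-0.04) and Tars2 (-0.03), all of them close to 0 before.

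The groups did not overlap on all 6 arrays for 3 cytosolic genes that were higher in low sodium (Farsb, Sars and Wars), 1 that was lower (Farsa) and 4 mitochondrial genes that were lower (Cars2, Pars2, Sars2 and Yars2), with 0 mitochondrial genes higher. Of all genes, 8.44% were higher and 9.07% lower in this way, which became 13.5% and 16% of genes at 10 or more and 10.3% and 13.9% of those between 8 and 10. Asked within replicates 1 and 2 and within replicate 3, the low-sodium arrays lay above in 7 cytosolic genes (Eprs, Farsb, Lars, Nars, Rars, Sars and Wars) and below in 4 (Farsa, Hars, Mars1 and Vars). For the mitochondrial set they lay above in 1 gene (Rars2) and below in 7 (Aars2, Cars2, Lars2, Pars2, Sars2, Wars2 and Yars2). The same held for 16.9% of all genes above and 17.5% below, and for 20.1% and 25.9% of the genes between 8 and 10. Of the genes at 10 or more, which include every cytosolic member, it held for 26.1% above and 31.0% below. Another 6 cytosolic and 4 mitochondrial genes had opposite signs, and all 10 were below 0 in replicates 1 and 2 and above 0 in replicate 3, as were 17.6% of all genes, 18.9% of those at 10 or more and 14.2% of those between 8 and 10. The same sign in both was seen in 9 cytosolic genes above and 4 below 0 and in 3 mitochondrial genes above and 9 below 0, against 28.6% and 30.2% of all genes.

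In 13 pairs a single cytosolic gene was set beside the mitochondrial gene of the same amino acid, which sets the compartments side by side. Phenylalanine, with subunit genes Farsa and Farsb in the cytosol, and glutamate and proline, which share Eprs, were left out of the pairs. In replicates 1 and 2, Farsa (-0.28) lay below Fars2 (0.03) and Farsb (0.15) above it. Eprs (0.08) lay above Ears2 (-0.22) and Pars2 (-0.14) there. The log2 difference of the cytosolic gene exceeded that of its mitochondrial partner in 9 of the 13 pairs in the batch-term fit, with a median gap of 0.21. In replicates 1 and 2 it did so in 12 pairs, all but histidine (Hars at -0.15, Hars2 at -0.03), with a median gap of 0.37. In replicate 3 it did so in 8 pairs, with a median gap of 0.30, and 8 pairs had it in both. Alanine had the widest gap of the batch-term fit, 0.50 for Aars and -0.40 for Aars2, followed by cysteine, with 0.08 for Cars and -0.72 for Cars2. Serine (0.27 for Sars, -0.47 for Sars2), tryptophan (0.53 for Wars, -0.20 for Wars2), tyrosine (0.00 for Yars, -0.70 for Yars2) and leucine (0.16 for Lars, -0.39 for Lars2) came next. In replicate 3, asparagine, threonine, methionine and valine turned the other way, the last 2 with -0.19 for Mars1 beside 1.35 for the dim Mars2 and -0.76 for Vars beside 0.42 for Vars2, the others with 0.38 for Nars beside 0.93 for Nars2 and 0.18 for Tars beside 0.38 for Tars2. The pairs share arrays, and the mitochondrial probe sets were dimmer than the cytosolic ones as a group, so these counts are a description with no test of the compartments.

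**Figure D3:**
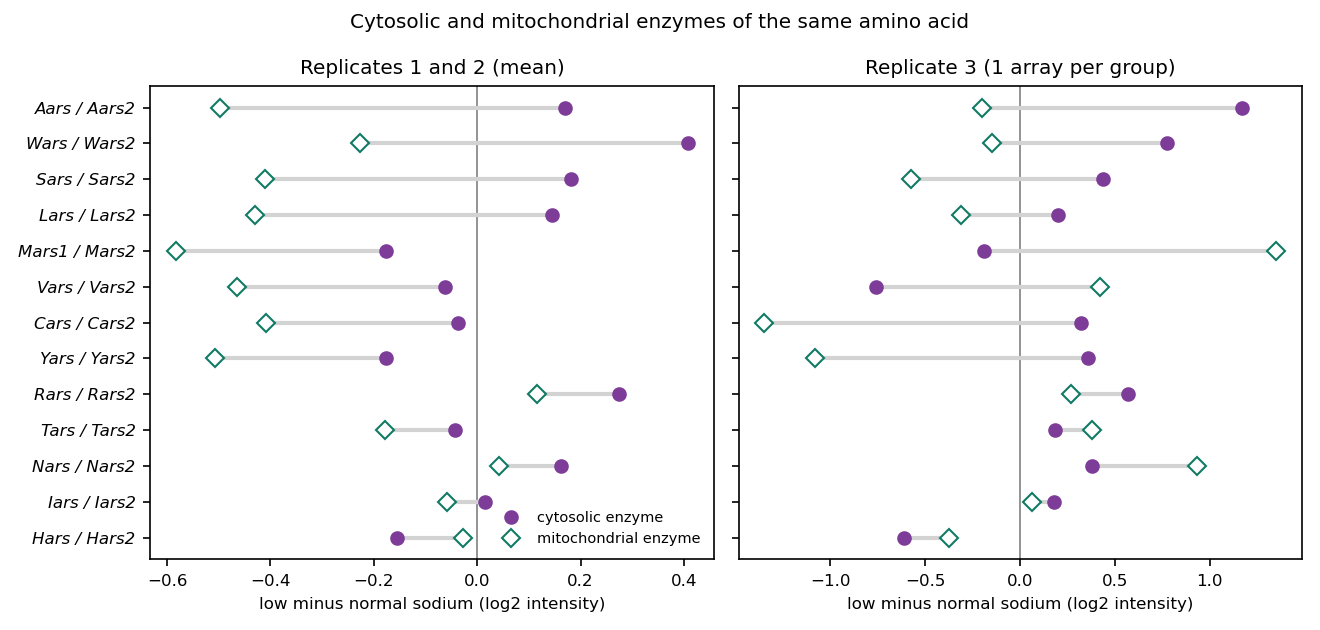
Low minus normal sodium on the log2 scale for the cytosolic (filled circle) and mitochondrial gene (open diamond) of each of 13 amino acids, joined by a grey line, in replicates 1 and 2 (left, mean) and replicate 3 (right, 1 array per group). The circle lies to the right of the diamond in 12 pairs on the left and in 8 pairs on the right; the axes have different ranges.

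The cytosolic genes were often lowest on the replicate 3 arrays. Replicate 3 lay below both other arrays of its group in 13 of 19 cytosolic genes in low sodium and in 16 of 19 in normal sodium. Over all genes this was so in 52.2% in low sodium and 45.5% in normal sodium, and over genes at 10 or more in 40.5% in each. For the mitochondrial genes it was so in 7 of 16 in low sodium and 6 of 16 in normal sodium. The median gap of replicate 3 to the mean of replicates 1 and 2 was -0.21 in low sodium and -0.47 in normal sodium on the log2 scale for the cytosolic genes, and 0.12 and -0.03 in the same order for the mitochondrial genes. Aars lay -0.15 from the other replicates in low sodium and -1.15 in normal sodium, the widest gap of the cytosolic genes there, and Iars was low in both (-0.86 in low sodium, -1.02 in normal sodium). Kars and Qars were higher on replicate 3 instead, by 0.41 and 0.89 in low sodium and 0.29 and 0.50 in normal sodium. Of the 13 synthetase genes on a list of known ATF4 targets, 11 lay lowest on replicate 3 in low sodium and 13 did in normal sodium, as did 24 and 25 of 28 other amino acid response genes.

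**Figure D4:**
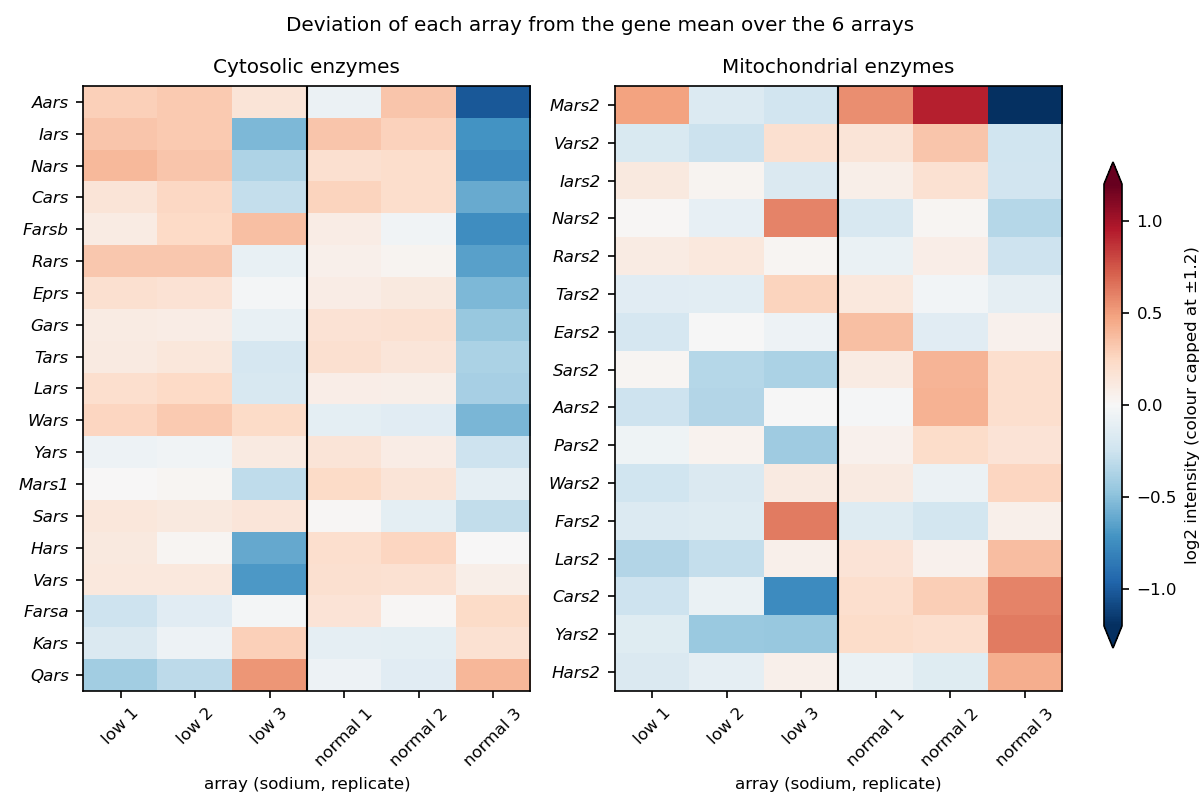
Each cell is the log2 intensity of 1 array minus the mean of that gene over the 6 arrays, red above and blue below the mean, with low sodium left of normal sodium; genes run down the page by how far replicate 3 departs in normal sodium. In the cytosolic panel the replicate 3 column is lowest of its group in 13 of 19 genes in low sodium and in 16 of 19 in normal sodium, against 7 and 6 of 16 in the mitochondrial panel.

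Whether the sodium difference itself changed between replicate 3 and replicates 1 and 2 was tested with an interaction term, added after these values were seen. It passed in 10 of 19 cytosolic and 4 of 16 mitochondrial genes, where 10.1% of all genes, 26.0% of those at 10 or more and 13.6% of those between 8 and 10 did. Vars was 0.70 further below 0 in replicate 3 (interaction -0.70 ± 0.08, SE, limma adjusted p = 0.00388), and Hars was likewise lower (-0.46, adjusted p = 0.0309). The other bright probe set of Hars went the opposite way, with -0.15 in replicates 1 and 2 and 0.02 in replicate 3. Farsb (0.96 ± 0.12, adjusted p = 0.00548), Aars (1.00, adjusted p = 0.0279), Eprs (0.43), Wars (0.37) and Rars (0.29) were further above 0 there. Yars (0.54), Gars (0.46) and Qars (0.39) lay below 0 in replicates 1 and 2 and above 0 in replicate 3. Another bright probe set of Qars did the same (-0.25 and 0.07), but a further one was lower in replicate 3 (-0.67) than in replicates 1 and 2 (-0.12). The mitochondrial genes were Nars2 (0.89), Tars2 (0.56) and Fars2 (0.54), higher in replicate 3, and Cars2 (-0.94), lower. Wars and Rars are thus called in the batch-term fit although the size of their difference was not the same in both sets of arrays. All residual spread of this test comes from replicate 1 against replicate 2, which differed little: the SD of their gap over genes at 10 or more was 0.104 in low sodium and 0.121 in normal sodium. Against replicate 3 it was 0.566 to 0.578 in low sodium and 0.452 to 0.453 in normal sodium. The single replicate 3 array of each group is therefore assumed to vary as little as the others.

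Grouped by structure, the cytosolic class I enzymes, which include Wars and Rars, had 2 of 10 genes that rose and 0 that fell. Their median log2 difference was 0.08, and the mitochondrial genes, Yars2 and Lars2 among them, were not grouped by class. The cytosolic class II enzymes had 0 of 9 past the limma threshold (6 at an unadjusted p under 0.05, where 45.6% of genes at 10 or more had one) and a median of 0.06. In the multisynthetase complex, the 7 measured enzymes had 1 that rose (Rars) and a median of 0.07, and the 12 cytosolic enzymes outside it had 1 that rose (Wars) and a median of 0.07. The 3 scaffold proteins of the complex did not pass: Aimp2 differed by -0.27 (limma adjusted p = 0.152), Aimp1 by -0.09 and Eef1e1 by 0.06. Of the 13 synthetase genes known as ATF4 targets, 1 rose (Wars), and their median was 0.08, made of 0.02 in replicates 1 and 2 and 0.36 in replicate 3. The 6 cytosolic genes not on that list had 1 that rose (Rars) and a median of -0.05. These medians stand beside -0.01 for all genes, and the counts beside the 10.1% of genes at 10 or more that rose.

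Other genes of the amino acid response moved in both directions. Of 28 measured, 5 rose, 4 fell and 19 did not pass, with a median log2 difference of 0.13, beside 10.1% that rose and 10.7% that fell among all genes at 10 or more. Without the replicate 3 term or with a constant prior 0 of the 28 passed. At an unadjusted p under 0.05 there were 6 and 11 in these fits, where 10.1% and 16.4% of all genes did so. On arrays centred on their medians Ddit3, Slc7a1 and Slc3a2 did not pass. In replicates 1 and 2 alone, 7 of the 28 were called higher and 7 lower, where 7.27% of all genes were called higher and 7.6% lower. Trib3, a pseudokinase induced by ATF4, had 10.89, 10.80 and 9.98 in low sodium, against 9.27, 9.38 and 7.91 in normal sodium, and rose by 1.70 ± 0.13 on the log2 scale (SE, limma adjusted p = 0.00108). Atf3 (0.92), Ddit3 (1.73), which encodes CHOP, and the amino acid transporter genes Slc7a1 (0.40) and Slc3a2 (0.50) also rose. Psat1 (-0.77) and Shmt2 (-0.72), of serine and glycine synthesis, and the transporter genes Slc7a5 (-0.41) and Slc38a2 (-0.49) fell. Atf4 itself had 12.99, 13.01 and 12.70 in low sodium, against 12.87, 12.90 and 11.93 in normal sodium, a log2 difference of 0.33 (limma adjusted p = 0.179). Asns, the asparagine synthetase gene and a common marker of this response, differed by 0.26 (adjusted p = 0.265). Among the synthetases with an upstream match to the element, Aars (0.50), Gars (0.06) and Tars (0.03) did not pass.

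Other genes that supply or use charged tRNA were examined too. Of 13 genes of cytosolic elongation and tRNA supply, Aimp1, Aimp2 and Eef1e1 again among them, 0 rose and 2 fell, with a median log2 difference of -0.10. In replicates 1 and 2, 12 of the 13 lay below 0 (median -0.15), and in replicate 3, 7 did (median -0.02). In the batch-term fit 3.78% of all genes rose and 3.81% fell, and of those at 10 or more 10.1% and 10.7% did. Aarsd1, an editing protein that removes serine from tRNA wrongly charged in place of alanine, had 9.63, 9.68 and 10.33 in low sodium, against 10.27, 10.24 and 10.65 in normal sodium, a fall by 0.51 on the log2 scale (SE 0.09, limma adjusted p = 0.0188). Eef1d, an exchange subunit of elongation factor 1, fell by 0.27 (SE 0.06, limma adjusted p = 0.0321), and Xpot, the tRNA export factor, differed by -0.15 (adjusted p = 0.202). Neither Aarsd1 nor Eef1d passed without the replicate 3 term (adjusted p of 0.494 and 0.758), with a constant prior (0.192 and 0.284) or on arrays centred on their medians (0.0523 and 0.111). Of 14 mitochondrial translation factors, all with a mean log2 intensity above 8, none passed in the batch-term limma fit and 1 had an unadjusted p under 0.05. Of all genes 21.7% had one, of those between 8 and 10 32.1%, and of those at 10 or more 45.6%. The median of the 14 factors was -0.07, with Tsfm at -0.31 (limma adjusted p = 0.124) and Tufm, the elongation factor it serves, at -0.23 (adjusted p = 0.29). In replicates 1 and 2, 11 of the 14 lay below 0 (median -0.10), and in replicate 3, 7 did (median -0.05). Among genes at 10 or more 55.8%, and among those between 8 and 10 51.9%, were below 0 in replicates 1 and 2. Of 10 interferon-stimulated genes, examined because of Wars, 0 rose and 1 fell, with a median of -0.03 that joined opposite signs. In replicates 1 and 2 the median was 0.26, with 8 of 10 above 0, while in replicate 3 it was -0.53, with 8 of 10 below 0. A fit of replicates 1 and 2 alone called Oas1a (0.54), Irf7 (0.61) and Ifi35 (0.23) higher and Ifit3 lower. It called 7.27% of all genes higher and 7.6% lower. The part of these shifts in the values of Wars was not tested, and Wars lay higher in low sodium in both sets of replicates. The gene that fell, Ifit3, was dim, at 2.95, 3.70 and 2.89 in low sodium, against 6.49, 6.49 and 6.36 in normal sodium.

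Other probe sets of the same genes were compared with the one shown, which had been chosen as the brightest. All of them read the same RNA on the same arrays and share its array effects. No share over all genes is given beside the counts. Of 27 further bright probe sets in 19 members, 23 lay on the same side of 0 as the one shown, 16 of 18 in the cytosolic and 7 of 9 in the mitochondrial set. The exceptions were 1 each in Farsa, Iars, Iars2 and Tars2, and in the last 3 the probe sets shown differed by 0.07, -0.02 and 0.01 on the log2 scale. Bright here means a mean log2 intensity of 5.87 or more, the middle value over the tested probe sets.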

How the data were processed

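Biotin-labelled material from total RNA of 6 RAW264.7 cultures was measured on Affymetrix mouse arrays, per the labels. The authors deposited linear intensity values of 45101 probe sets. The submitters' processing notes name Partek, and how probes were summarised is not stated in any source used. The 64 control probe sets were left out of the tests. Of the other 45037, 34945 were annotated to 1 gene, 932 to several and 9160 to none. Names come from the platform annotation, whose Entrez identifiers matched RefSeq (GRCm38.p6) for 34741 probe sets. For each gene the probe set of highest mean log2(intensity + 1) over all arrays was taken. The main fit was limma 3.58.1 in R 4.3.3 (lmFit, eBayes with trend, two-sided, Benjamini-Hochberg over 18193 genes), with sodium and replicate 3 as terms. Members, lists, fit and prior were chosen with earlier results of these data known, so its p-values carry less weight than those of a test fixed in advance. Described in full were members past the threshold, the 4 of smallest p, the brightest, the dimmest and the 2 of largest difference in each compartment, Gars and Kars, and up to 4 genes of other lists by p. Further genes, named after their values were seen, make up small counts. Simulated arrays of low against normal sodium (18193 genes, 200 changed) were drawn from the batch-term fit and so favour it. Every changed gene was at or above the median brightness, and its change was the same in replicate 3 as in replicates 1 and 2. Dim genes and differences that vary between the replicates were thus not covered. The batch-term fit recovered 50.2% of changes of 0.5, 93% of 1 and 100% of 2 on the log2 scale, with 7.25% of calls false. Without the replicate 3 term the recovery was 0%, 29.4% and 81.3%. The number of arrays limits the precision. Alternatives covered priors, terms, scaling, pseudocount, averaging or testing of all probe sets, brightness and left-out arrays.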

Additional observations from a re-analysis of the deposited data

How the results depend on the processing

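No gene described in full that passed the threshold changed sign under any setting. Of the genes described in full that did not pass, some changed sign, and other genes are not listed here. Tars2 (-0.18), Gars (-0.09), Mars2 (-0.58), Kars (-0.01) and Eef1e1 (-0.06) were below 0 in replicates 1 and 2 alone. Tars2 (-0.03) and Kars (-0.01) were so with median centring, Kars (-0.0031) with quantile normalization and Mars2 (-0.03) with a pseudocount of 16. With averaged probe sets, Tars2 (-0.02) and Mars2 (-0.25) were below 0 and Xpot was above 0 (0.34). The 2 cytosolic and 2 mitochondrial calls became 0 and 0 without the replicate 3 term, with a constant prior, and with both changes together. Averaging all probe sets of a gene gave 1 and 0, and median centring of each array gave 0 and 2. Testing every probe set, with the same one still read for each gene, gave 2 and 1. Restricting the test to genes at or above the median brightness gave 4 and 2, and replicates 1 and 2 alone gave 6 (Wars, Rars and Nars higher, Farsa, Mars1 and Qars lower) and 2. With a pseudocount of 16, quantile normalization or a robust prior the counts were 2 and 2. Leaving out 1 array at a time gave 0 to 6 cytosolic and 0 to 2 mitochondrial calls. Without the replicate 3 array in low sodium there were 6 and 2, and without the one in normal sodium 5 and 2. Without replicate 1 in low sodium there were 0 and 1, and without replicate 2 in low sodium or replicate 1 or 2 in normal sodium 0 and 0. The cause of these shifts was not tested, beyond the smaller number of arrays. With either replicate 3 array left out, the other is taken up by the replicate 3 term and adds nothing to the sodium difference. Those fits therefore repeat the differences of replicates 1 and 2 alone (0.41 for Wars, 0.28 for Rars and -0.43 for Lars2). In the fits without an array of replicate 1 or 2, the lone array left there in that group is assumed to vary like the others. Median centring also moved the split of calls over all genes, to 361 higher and 664 lower (35.2% higher), against 688 and 694 (49.8%). With it, the adjusted p was 0.0865 for Wars, 0.203 for Rars, 0.023 for Yars2 and 0.0757 for Lars2. With the replicate number as a replicate block, 0 cytosolic and 0 mitochondrial genes passed (adjusted p of Wars 0.0531, Rars 0.0981, Yars2 0.0882 and Lars2 0.121), where 544 of all genes (2.99%) did and 11 members had an unadjusted p under 0.05. Same-numbered arrays deviated together with correlations of 0.10, 0.08 and 0.24 in replicates 1, 2 and 3, and not every array correlated best with its own number, so the numbers were not taken as pairs. Dim genes such as Mars2 are limited by signal over background.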
